A study of Mus musculus with 18 samples.

Results

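The inflammasome and pyroptosis genes described here are 10 of the 18668 genes in the table: the sensors Nlrp3, Aim2 and Naip5, the adaptor Pycard with the Nlrp3 partner Nek7, the inflammatory caspases Casp1, Casp4 and Casp12, the pore former Gsdmd and the cytokine Il18. They were chosen by name with earlier results of these data known, so counts set beside shares of all genes describe this list only. Their RNA was measured by RNA sequencing in murine bone marrow-derived macrophages (BMDM), which are bone marrow cells matured in culture with macrophage colony-stimulating factor. Donor mice were Apoe-/-, or lacked Treml4 as well (Apoe-/-/Treml4-/-, DKO), on a C57BL6 background, so every group lacked Apoe and no group was wild-type. Treml4 encodes a receptor of the TREM family, and the comparison of the genotypes asks whether its loss changes how the cells respond to lipid. After 7 days of differentiation the cells received vehicle (PBS), 10 µg/ml or 60 µg/ml oxidised LDL (oxLDL), the lipoprotein form that turns macrophages into foam cells. Each of the 6 groups had 3 biological replicates, giving 18 libraries. The series states 16 hours of oxLDL, whereas the study's methods give a longer exposure and the treatment label describes a different stimulus, so the exposure time is uncertain. The DKO mice came from a cross that was then bred as its own line, and differences between the lines cannot be told apart from the loss of Treml4. The age of the mice is not given in the sources used here.

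An inflammasome is a protein complex that a sensor assembles in the cytosol when it meets microbial products or signs of cell damage. The adaptor ASC, the product of Pycard, links the sensor to caspase-1, which cleaves the precursors of interleukin-1 beta and interleukin-18 and also gasdermin D, whose freed end forms pores in the cell membrane. In macrophages the amount of Nlrp3 and of pro-interleukin-1 beta is set at the transcript level by an earlier priming signal. This signal often runs through Toll-like receptors and NF-kB. Some, but not all, other parts of the machinery are present at rest without it. Assembly, cleavage, pore formation and cytokine release are protein events that RNA levels do not measure.

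Casp1, Casp4 and Casp12 are neighbours on one strand of chromosome 9 (GRCm38, the assembly also called mm10), at chr9:5298517-5307265, chr9:5308828-5336783 and chr9:5345430-5373032. Nlrp3 lies on chromosome 11 (chr11:59541568-59566956). Promoter windows in RefSeq for build GRCm38.p6, running from 250 bases before to 50 bases after a transcript start, were found for 9 of the 10 genes, with 11 windows in all; Gsdmd was not matched. They were searched on both strands for the NF-kB site, the core of the interferon-stimulated response element GAAANNGAA and the core of the gamma-activated site TTCNNNGAA. An NF-kB site stood in windows of 3 genes, Nlrp3, Casp4 and Naip5, beside 8.46% of the 32851 promoter windows searched. These are not every RefSeq window, and the share counts windows, not genes. The gamma-activated core stood in the window of 1 gene, Casp12 (8.3% of the windows searched), and the interferon-stimulated core in 0 (8.56%). The bases before the start of Nlrp3 and Casp4 are shown because these genes changed most with oxLDL, and those of Casp1 because it is the neighbour of Casp4 that did not pass the test. Capitals mark matches to the NF-kB site.
Nlrp3 (chr11:59541319-59541568, + strand): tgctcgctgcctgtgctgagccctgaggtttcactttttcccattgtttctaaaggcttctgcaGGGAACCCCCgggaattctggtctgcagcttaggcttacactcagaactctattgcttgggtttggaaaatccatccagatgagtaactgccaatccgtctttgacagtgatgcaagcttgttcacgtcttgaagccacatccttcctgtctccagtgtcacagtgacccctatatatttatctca
Casp4 (chr9:5308599-5308848, + strand): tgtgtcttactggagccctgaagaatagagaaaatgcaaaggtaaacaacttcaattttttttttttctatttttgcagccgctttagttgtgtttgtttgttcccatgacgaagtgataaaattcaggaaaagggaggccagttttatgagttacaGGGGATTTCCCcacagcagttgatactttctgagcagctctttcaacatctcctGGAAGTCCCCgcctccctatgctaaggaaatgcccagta
Casp1 (chr9:5298267-5298516, + strand): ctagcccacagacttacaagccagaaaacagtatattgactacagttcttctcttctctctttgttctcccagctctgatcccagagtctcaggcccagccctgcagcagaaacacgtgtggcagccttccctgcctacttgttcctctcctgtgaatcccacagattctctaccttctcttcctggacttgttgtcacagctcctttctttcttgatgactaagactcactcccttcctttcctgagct
Counted from the transcript start as position 0, the Nlrp3 match spans bases -186 to -177 of this window, and the window of its other RefSeq start held none. In Casp4, overlapping matches on the forward strand span bases -93 to -84 and -92 to -83, and a match on the reverse strand spans bases -39 to -30. A match also stood before Naip5, which did not pass the test with oxLDL, and none stood before Il18, which was called. These matches describe letters in a window, and binding at them was not measured here.

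The values are RPKM, read numbers scaled to transcript length and library depth, which allow levels to be compared between genes. Over the 18 libraries the median level was 61.1 RPKM for Casp1 and 44.2 RPKM for Gsdmd, above 95.1% and 93.2% of all genes by median. Their ranges just met, the lowest Casp1 library being at 54.6 RPKM and the highest Gsdmd library at 54.8 RPKM. Pycard and Nek7 followed at 33.0 and 31.2 RPKM, and their ranges over the libraries overlapped (24.3 to 36.1 and 27.6 to 34.5 RPKM). Casp4 (17.9 RPKM), Nlrp3 (14.6 RPKM) and Aim2 (11.0 RPKM) lay lower, and their order depended on the treatment. Naip5 had a median of 6.01 RPKM and Il18 one of 2.87 RPKM. Casp12 was near the limit of detection, at 0.0543 RPKM. Replicates were close: over the 54 combinations of the 9 other genes and 6 groups, the coefficient of variation had a median of 6.41% and ranged from 0.291% to 16.8%. The highest library stood 3.02 times above the lowest for Nlrp3 and 3.22 times for Casp4, against 1.25 times for Nek7.

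**Figure D1:**
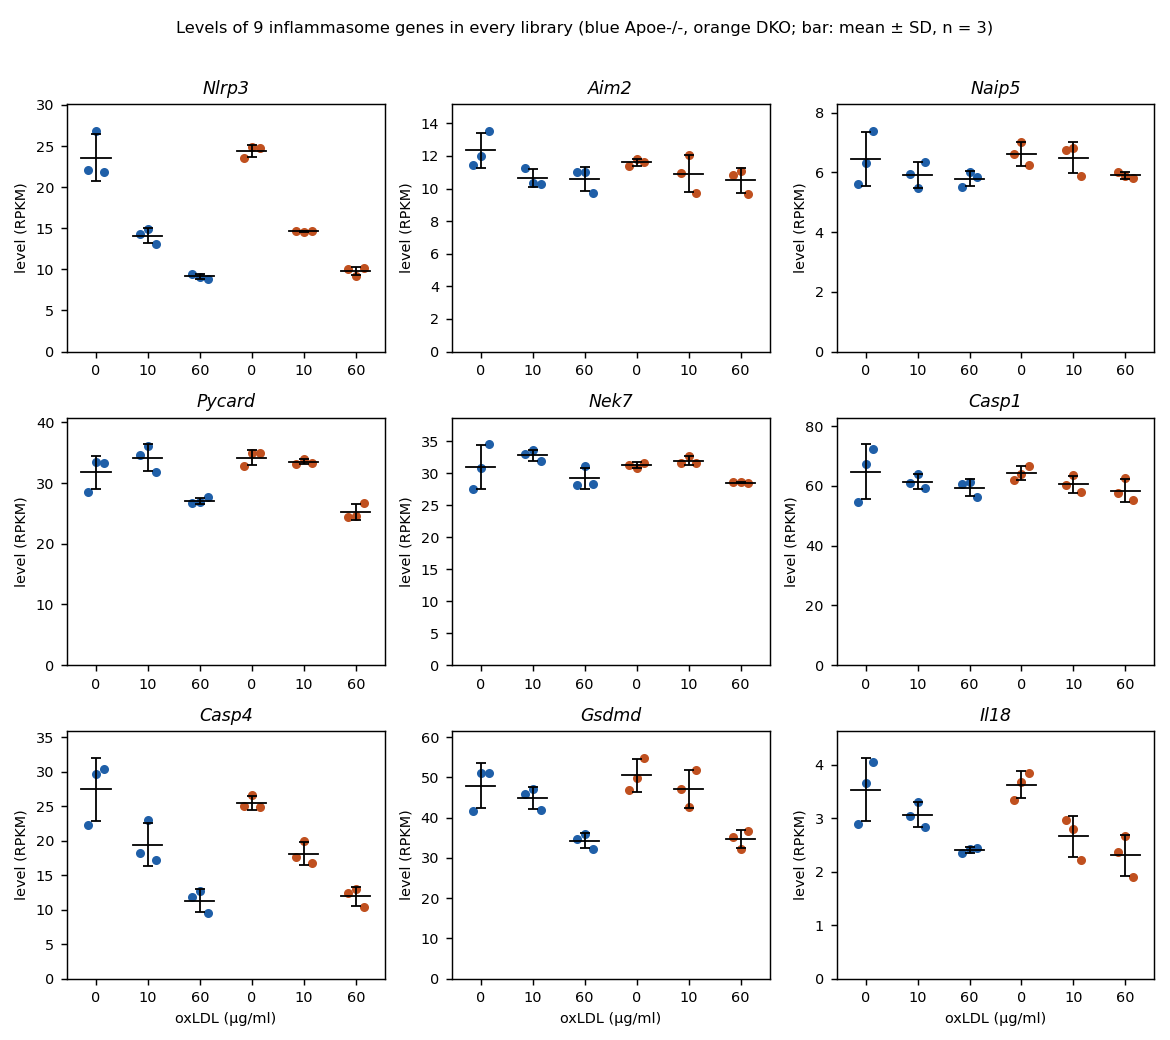
RPKM (vertical axes, from 0) of 9 genes in each of 18 libraries by oxLDL dose in µg/ml, with Apoe-/- in blue on the left and DKO in orange on the right; bars are mean ± SD over 3 replicates. Nlrp3 and Casp4 step down at each dose in both genotypes, Nlrp3 from means of 23.6 and 24.4 to 9.16 and 9.81 RPKM, whereas Casp1, Nek7 and Naip5 stay in a narrow band.

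The first question was what the high dose of oxLDL did to these transcripts. At 60 µg/ml Nlrp3 and Casp4 fell to between 0.392 and 0.468 of their untreated level in both genotypes, Il18 fell by a smaller amount in both, and Gsdmd fell in both, with a change that passed the fold limit only in DKO cells. Pycard was slightly lower in both genotypes, below the fold limit. Casp1, Nek7, Aim2 and Naip5 did not pass the test in either genotype in the main fit. A gene was called changed at an adjusted p under 0.05, by limma across 12838 genes with Benjamini-Hochberg adjustment, together with a fold change of at least 1.4, which are the study's limits. Log2 fold changes are on the scale of log2(RPKM + 0.1). Of the 9 genes above the filter on low values, 3 were called in Apoe-/- cells, all lower, against 6.78% of all genes tested there that were called lower. In DKO cells 4 of 9 were called lower, against 7.31% of all genes. All 9 log2 fold changes were negative in each genotype, with medians of -0.23 and -0.44, where the medians over all genes were 0.06 and -0.06. An exact permutation test of 3 against 3 libraries cannot give a p below 0.1, so single genes are judged by the limma fit. Bulk RNA cannot tell fewer expressing cells from less RNA per cell.

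Nlrp3 encodes the sensor that responds to potassium efflux, crystals and other signs of damage. In untreated Apoe-/- macrophages it was measured at 22.1, 26.8 and 21.8 RPKM, and at 60 µg/ml at 9.48, 9.11 and 8.87 RPKM. In DKO macrophages the untreated libraries gave 23.5, 24.8 and 24.8 RPKM and those at 60 µg/ml 10.0, 9.23 and 10.2 RPKM. Every treated library lay far below every untreated one. The log2 fold change was -1.35 (SE 0.07, adjusted p = 8.98e-10, limma) in Apoe-/- and -1.30 (SE 0.07, adjusted p = 1.92e-09) in DKO cells, a level 60.8% and 59.5% lower. Of the other sensors, Aim2, which binds double-stranded DNA in the cytosol, had log2 fold changes of -0.22 (adjusted p = 0.0584, limma) and -0.15 (adjusted p = 0.232). Its untreated libraries gave 11.5, 12.0 and 13.5 RPKM in Apoe-/- cells, just above 11.0, 11.0 and 9.72 RPKM at the high dose. Naip5, which recognises bacterial flagellin and passes the signal to Nlrc4, had log2 fold changes of -0.14 and -0.16 (adjusted p = 0.267 and 0.213, limma). Naip5 belongs to a family of near-identical copies, so the assignment of its reads is uncertain.

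Pycard encodes ASC, the adaptor that joins sensor and caspase. It was measured at 28.5, 33.4 and 33.3 RPKM in untreated Apoe-/- cells and at 26.7, 26.8 and 27.6 RPKM at 60 µg/ml. In DKO cells the values were 32.8, 34.9 and 34.9 RPKM untreated and 24.3, 24.6 and 26.8 RPKM at the high dose. The groups did not overlap in either genotype, and the log2 fold changes were -0.23 (SE 0.06, adjusted p = 0.0136, limma) and -0.44 (SE 0.06, adjusted p = 7.1e-05), both smaller than the fold limit. Nek7, a kinase that binds NLRP3 and is needed for its assembly, had the narrowest range over the libraries, and its log2 fold changes were -0.08 (95% interval -0.22 to 0.06) and -0.13 (-0.27 to 0.01).

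Casp4, whose mouse product is also known as caspase-11, is the caspase that binds bacterial lipopolysaccharide in the cytosol and cleaves gasdermin D without a sensor. Its untreated Apoe-/- libraries gave 22.2, 29.7 and 30.4 RPKM and those at 60 µg/ml 11.8, 12.6 and 9.47 RPKM. The DKO libraries gave 25.0, 26.6 and 24.8 RPKM untreated and 12.4, 13.0 and 10.4 RPKM at the high dose. No treated library reached an untreated one. The log2 fold change was -1.27 (SE 0.14, adjusted p = 1.7e-06, limma) in Apoe-/- and -1.10 (SE 0.14, adjusted p = 1.02e-05) in DKO cells, a level 58.5% and 53.2% lower. Casp1, the caspase that inflammasomes activate, lies next to it on the chromosome and did not pass the test. Its untreated Apoe-/- libraries gave 54.6, 67.5 and 72.2 RPKM, around the 60.6, 61.4 and 56.2 RPKM measured at the high dose. In DKO cells it was 61.9, 63.9 and 66.6 RPKM untreated and 57.5, 62.5 and 55.1 RPKM at 60 µg/ml. The groups overlapped in both genotypes, with log2 fold changes of -0.12 (95% interval -0.29 to 0.06) and -0.14 (-0.31 to 0.04).

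Gsdmd encodes gasdermin D, the pore former of pyroptosis. It was measured at 41.7, 51.1 and 51.2 RPKM in untreated Apoe-/- cells and at 34.6, 35.8 and 32.3 RPKM at 60 µg/ml. The DKO values were 46.8, 49.8 and 54.8 RPKM untreated and 35.2, 32.2 and 36.7 RPKM at the high dose. Each treated library lay below each untreated one of its genotype. A log2 fold change of -0.54 in DKO cells (SE 0.09, adjusted p = 0.000263, limma) passed the fold limit and that of -0.48 in Apoe-/- cells (SE 0.09, adjusted p = 0.000663) did not, and the test of the difference between genotypes gave no call. Without the first untreated Apoe-/- library, the lowest of its group for 8 of the 9 genes, the Apoe-/- change was -0.58 and was called. Without the third untreated DKO library the DKO change was -0.48 and was not.

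Il18 encodes a cytokine that caspase-1 cleaves into its active form. Its untreated Apoe-/- libraries gave 2.89, 3.67 and 4.05 RPKM, and those at 60 µg/ml 2.35, 2.43 and 2.45 RPKM. In DKO cells it was 3.35, 3.68 and 3.86 RPKM untreated and 2.36, 2.66 and 1.90 RPKM at the high dose. The groups did not overlap in either genotype. The log2 fold change was -0.52 (SE 0.13, adjusted p = 0.00654, limma) in Apoe-/- and -0.64 (SE 0.13, adjusted p = 0.00171) in DKO cells. The Apoe-/- call was lost at -0.42 without the third untreated library, and the DKO call at -0.47 without the libraries that held Xist transcripts.

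**Figure D2:**
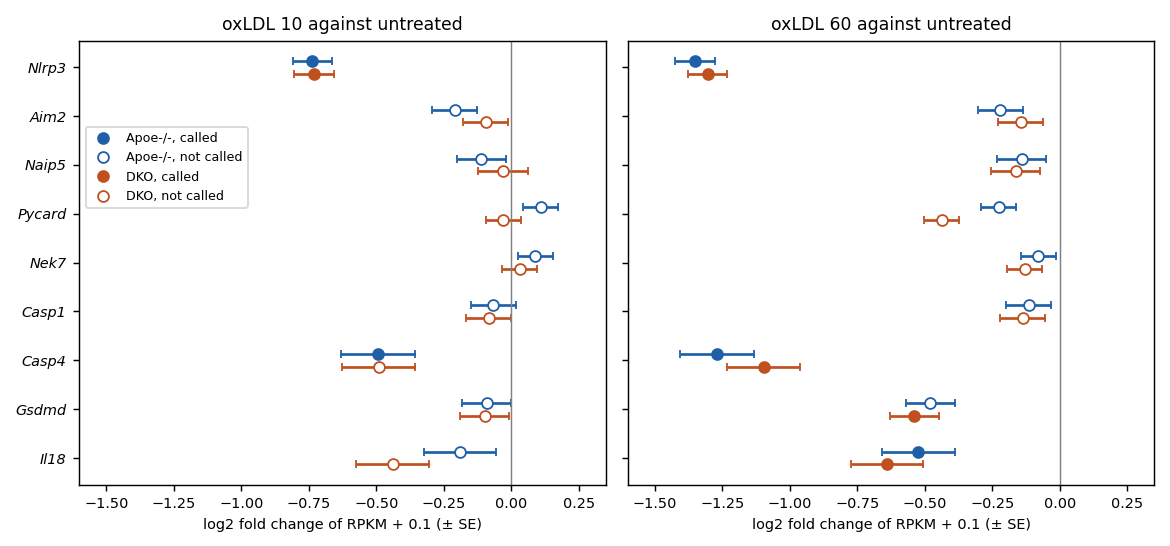
Log2 fold change (horizontal axis, log2 of RPKM + 0.1, ± SE from limma) of 9 genes at 10 µg/ml (left) and 60 µg/ml oxLDL (right) against untreated, Apoe-/- in blue and DKO in orange; filled points were called. Nlrp3 is near -0.73 at the low and -1.30 to -1.35 at the high dose, and Nek7 and Casp1 lie near 0 at both.

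Comparing libraries that shared a replicate number within a genotype, Nlrp3, Casp4, Gsdmd, Il18, Pycard, Aim2 and Naip5 were lower at 60 µg/ml than untreated in 6 of 6 pairs. Casp1 was lower in 5 of 6 and Nek7 in 4 of 6. The share of all genes lower in every pair was not computed, so these counts only describe the 9 genes. Aim2 and Naip5 did not pass the test in the main fit. With the replicate number as a block, Aim2 had an adjusted p of 0.0318 in Apoe-/- and 0.159 in DKO cells (limma). Both changes were smaller than the fold limit. By groups that did not overlap, 6 of 9 genes were lower in Apoe-/- cells, against 14.9% of all genes tested, and 8 of 9 in DKO cells, against 28.3%. Macrophage markers differed between the same libraries, and not in 1 direction. The summed RPKM of 8 markers, most of it Lyz2, was 8932 to 11764 in untreated and 6529 to 8483 in high-dose Apoe-/- libraries, and 8383 to 10951 and 5560 to 7152 in DKO libraries. Without Lyz2 the sum of the other 7 was 1779 to 2286 and 1624 to 1792 RPKM in Apoe-/- cells, which overlapped, and 1941 to 2218 and 1580 to 1648 RPKM in DKO cells. One by one, in each genotype 5 of 8 lay lower at the high dose without overlap (Adgre1, Csf1r, Fcgr1, Lyz2 and Cd14, the last also on the wider list given later), 2 lay higher (Cd68 and Mertk) and Itgam overlapped. Their part in the result was not tested.

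At the low dose the question was which genes already responded, and Nlrp3 was the only gene called in both genotypes. Its level at 10 µg/ml was 14.2, 14.9 and 13.1 RPKM in Apoe-/- cells and 14.7, 14.6 and 14.7 RPKM in DKO cells. These libraries lay between the untreated and the high-dose groups without touching either. Against untreated cells the log2 fold change was -0.74 (SE 0.07, adjusted p = 3.23e-05, limma) in Apoe-/- and -0.73 (SE 0.07, adjusted p = 2.64e-05) in DKO cells. Of the 9 genes, 2 were called lower in Apoe-/- cells, against 2.04% of all genes, and 1 in DKO cells, against 1.69%.

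The second gene in Apoe-/- cells was Casp4, at 18.2, 22.9 and 17.2 RPKM, where 1 treated library reached above the lowest untreated one. Its log2 fold change was -0.49 (SE 0.14, adjusted p = 0.0369, limma), close to both limits, and the call was lost without any 1 of 4 libraries. These were untreated replicates 2 and 3 and low-dose replicates 1 and 3, which left -0.43, -0.41, -0.45 and -0.41. In DKO cells, at 17.7, 20.0 and 16.7 RPKM, all treated libraries lay below the untreated ones, with a log2 fold change of -0.49 (adjusted p = 0.0522, limma) that just missed the limit. With the replicate number as a block the adjusted p was 0.0040 and Casp4 was called in DKO cells too. Il18 in DKO cells was 2.97, 2.79 and 2.23 RPKM, below all untreated libraries, with a log2 fold change of -0.44 (adjusted p = 0.0873, limma) that was not called. Pycard had log2 fold changes of 0.11 and -0.03 at this dose and Nek7 of 0.09 and 0.03, none of them past the test. Groups did not overlap, and were lower, for 2 of 9 genes in Apoe-/- cells (6.16% of all genes) and for 3 of 9 in DKO cells (8.9%).

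From the low to the high dose Nlrp3 and Casp4 fell further in both genotypes. For Nlrp3 the log2 fold change was -0.61 (SE 0.07, adjusted p = 2.47e-05, limma) in Apoe-/- and -0.57 (SE 0.07, adjusted p = 5.11e-05) in DKO cells. That of Casp4 was -0.78 (SE 0.14, adjusted p = 0.000793, limma) and -0.61 (SE 0.14, adjusted p = 0.00573). These 2 of 9 genes were called lower in each genotype, against 3.54% and 3.74% of all genes. Pycard and Gsdmd were lower with adjusted p under the limit but changes smaller than the fold limit: Pycard had -0.34 and -0.41, and Gsdmd -0.39 and -0.44. For Pycard the decrease lay in this step. Its low-dose libraries, at 34.7, 36.1 and 31.8 RPKM in Apoe-/- cells and 33.2, 33.9 and 33.3 RPKM in DKO cells, overlapped the untreated ones. These comparisons share their treated or untreated libraries with those above and are not independent of them.

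The comparison of the genotypes asks whether the loss of Treml4 changed these genes. Treml4 itself was read first: Apoe-/- libraries gave 1.86 to 3.48 RPKM untreated, 3.08 to 3.61 RPKM at the low dose and 8.06 to 8.39 RPKM at the high dose. The DKO libraries were listed at 0, except 1 untreated library at 0.012 RPKM, which matched the labels. None of the 9 genes was called between genotypes at any treatment by limma. On the deposited scale none had an unadjusted p under 0.05. Of all genes 17.3%, 9.75% and 7.88% had one in untreated, low-dose and high-dose cells. Among all genes 0.21% were called in untreated cells, 0.0857% at the low dose and 0.125% at the high dose. The groups of the 2 genotypes overlapped for all 9 genes at each treatment, where 19.6%, 12.1% and 16.5% of all genes did not overlap. Genes lower in DKO without overlap were 1.23%, 3.12% and 12.0% of all. In untreated cells the median log2 ratio over all genes was 0.09, and -0.01 after rescaling the libraries by their median ratios. These shares are on the deposited scale and do not separate a shift of whole libraries from differences of single genes.

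The size of the differences was small. In untreated cells the log2 ratio of DKO to Apoe-/- ran from -0.10 to 0.11, at the low dose from -0.20 to 0.13 and at the high dose from -0.10 to 0.10. The lowest adjusted p was 0.383, 0.613 and 0.719 in turn (limma). The 95% intervals reached at most from -0.38 to 0.33 in untreated cells, from -0.49 to 0.32 at the low dose and from -0.35 to 0.36 at the high dose. These bounds correspond to at most a 1.30-fold difference in untreated cells, a difference at the 1.4-fold limit at the low dose and a 1.29-fold difference at the high dose. At the low dose the lower bound belonged to Il18. Smaller differences between genotypes could not be seen with 3 libraries a group. Directions depended on the scaling: in untreated cells 3 of 9 genes were lower in DKO on the deposited scale and 8 of 9 after rescaling. Sizes depended on it too. After rescaling, Aim2 in untreated cells was at -0.18 (SE 0.06, adjusted p = 0.260, limma). Il18 at the low dose was at -0.26 (SE 0.11, adjusted p = 0.434). Unadjusted p on that scale is not given here, and the intervals above are on the deposited scale.

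**Figure D3:**
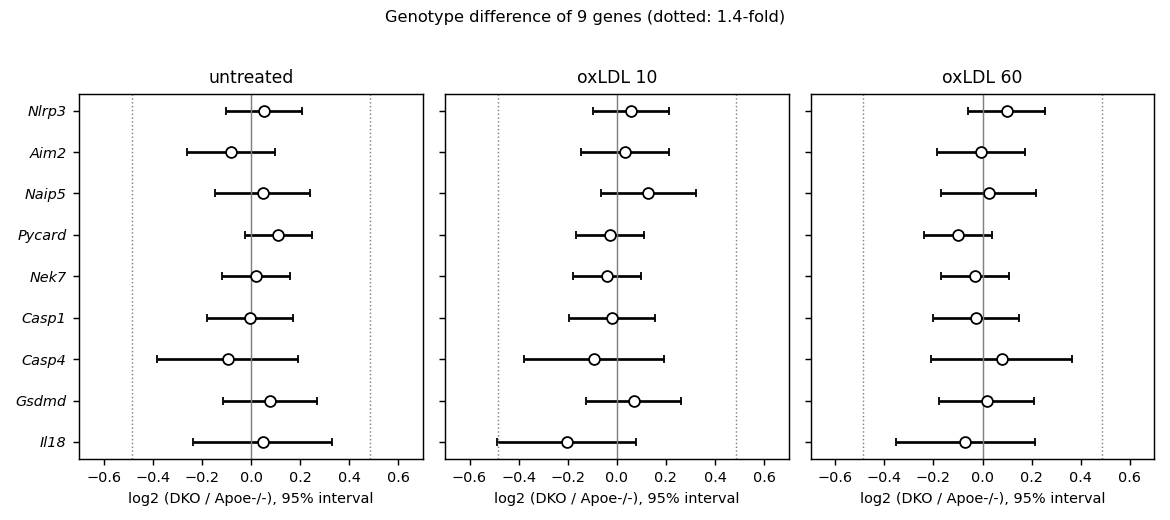
Log2 ratio of DKO to Apoe-/- (horizontal axis, with 95% intervals from limma) of 9 genes in untreated cells and at 10 and 60 µg/ml oxLDL, with dotted lines at a 1.4-fold change. Every interval includes 0, and the widest reaches -0.49 for Il18 at the low dose.

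Whether the oxLDL response differed between genotypes was tested by the interaction of genotype and dose. No gene of the 9 was called at either dose by limma, where 0% and 0.0156% of all genes were, and the number with an unadjusted p under 0.05 was 0 at the low and 1 at the high dose (1.92% and 9.78% of all genes). That gene was Pycard, whose high-dose decrease was larger in DKO cells by -0.21 (unadjusted p = 0.0347, adjusted p = 0.507, limma). The median interaction over all genes at the high dose was -0.11, and rescaling the libraries shifted it by 0.12, so that the number of the 9 genes with a negative interaction went from 6 to 1. For Nlrp3 the interaction at the high dose had a 95% interval from -0.17 to 0.26, and for Casp4 from -0.23 to 0.58.

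Casp12, an inflammatory caspase best known in mice from the endoplasmic reticulum stress field, was below the filter of 0.1 RPKM in 3 libraries and was not tested in the main fit. Its RPKM values are whole multiples of 1 step per library, to within 0.001 of a read, and so give its reads. Apoe-/- libraries held 11, 6 and 7 reads untreated, 8, 11 and 7 at the low dose and 15, 6 and 7 at the high dose. The DKO libraries held 6, 9 and 4 reads, 2, 4 and 6 reads, and 5, 3 and 3 reads in the same order. The groups overlapped in untreated cells, and at both doses each Apoe-/- library held more reads than any DKO library. Libraries of one replicate number are paired within a genotype, so the doses are not independent of each other. Per length the ranges at the high dose were 0.0511 to 0.106 RPKM in Apoe-/- and 0.0231 to 0.0483 RPKM in DKO cells. Among genes with reads but below the filter, 4.8% did not overlap between genotypes at the high dose and 4.41% at the low dose, and an exact permutation test of 3 against 3 cannot go below p = 0.1. The alternative fit without a filter included Casp12 and did not call it between genotypes at any treatment. At 15 reads or fewer a library, the read numbers are given as a description.

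**Figure D4:**
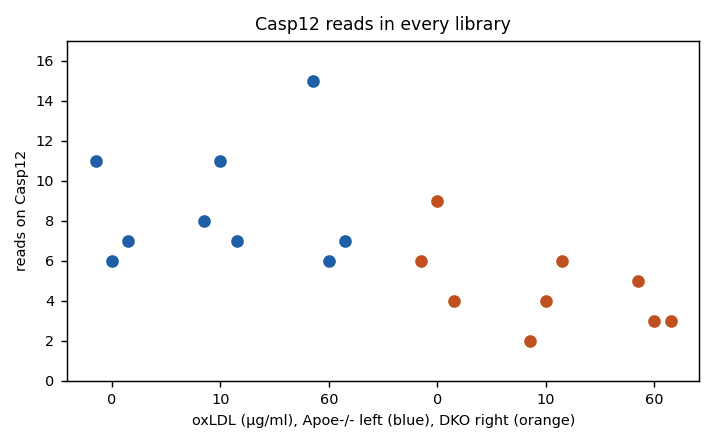
Reads on Casp12 (vertical axis, from 0) in each of 18 libraries by oxLDL dose in µg/ml, Apoe-/- in blue and DKO in orange. No library holds more than 15 reads, and at 60 µg/ml the Apoe-/- libraries hold 6 to 15 and the DKO libraries 3 to 5.

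Across the 18 libraries the 9 genes differed in how closely they moved together, given here as Pearson's r of log2(RPKM + 0.1). The libraries share doses and genotypes, so r describes mainly the dose pattern and has no test. Nlrp3 and Casp4 had r = 0.940, Pycard and Gsdmd 0.894, and Casp4 and Il18 0.896. Casp1 and its neighbour Casp4 had r = 0.693, and Aim2 and Pycard had the lowest, 0.328. The tested genes most like Nlrp3 were Socs3 (r = 0.993), Traf1 (0.988) and Spata13 (0.987). Those most like Casp4 were Olr1 (0.983), Pde4b (0.981) and Il13ra1 (0.976). For Gsdmd they were Psmb8 (0.974), Ncf4 (0.974) and Irf5 (0.967), for Pycard Tor4a (0.966), Nrros (0.956) and Lztr1 (0.948), and for Il18 Ube2l6 (0.928), Plscr1 (0.915) and Tmem243 (0.914). For the genes that did not pass the test the highest r was 0.847 for Aim2 (Prr5l), 0.885 for Casp1 (Supt7l), 0.922 for Naip5 (Exoc2) and 0.928 for Nek7 (Sri).

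A wider list of the pathway held 55 symbols, of which 53 were in the table and 47 above the filter. At the high dose 3 rose and 17 fell in each genotype, by the same limits, and these were the same genes. Of all genes 7.13% rose and 6.78% fell in Apoe-/- cells, and 4.87% rose and 7.31% fell in DKO cells. The list was chosen with earlier results of these data known and is given as counts. By role, 1 of 8 further sensors fell (Mefv, which encodes pyrin), and 1 of 6 caspases and necroptosis genes (Zbp1). Of 9 priming genes, the receptors and factors that set transcript levels before activation, 6 fell: Tlr2, Cd14, Myd88, Nfkb1, Irf1 and Irf2. Irf2 was close to the limit, with adjusted p = 0.0490 in Apoe-/- and 0.0418 in DKO cells (limma). Of 12 regulators 7 fell, among them the guanylate-binding proteins Gbp2, Gbp3 and Gbp5, which help expose bacterial lipopolysaccharide to caspase-11, and 1 rose. None of 5 cytokine receptors was called in either genotype.

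Il1b, whose precursor caspase-1 also cleaves, had the lowest log2 fold change of the 47 genes in each genotype. It was 4.50, 8.71 and 5.57 RPKM in untreated Apoe-/- cells and 0.589, 0.313 and 0.191 RPKM at the high dose. In DKO cells it went from 4.24, 5.24 and 10.3 RPKM to 0.336, 0.139 and 0.476 RPKM. The log2 fold changes, -3.81 and -3.99, stand beside -0.52 and -0.64 for Il18. The high-dose levels of Il1b are close to the pseudocount of 0.1, and with a pseudocount of 1 its changes were -2.38 and -2.45, still called. The next lowest, by the mean of both genotypes, were Gbp5 (-3.47 and -3.33, or -1.77 and -1.62 with a pseudocount of 1), Gbp2 (-2.62 and -2.24), Mefv (-2.37 and -2.24) and Gbp3 (-2.40 and -2.16). Gbp5 went from 3.08 ± 0.88 to 0.181 ± 0.042 RPKM in Apoe-/- and from 2.65 ± 0.76 to 0.168 ± 0.044 RPKM in DKO cells (SD, n = 3 each). The genes that rose were Panx1, a membrane channel that lets ATP out of the cell, Il18bp, the secreted inhibitor of interleukin-18, and Ninj1, which ruptures the membrane late in lytic death. Panx1 went from 6.18 ± 0.28 to 25.6 ± 1.28 RPKM in Apoe-/- and from 6.71 ± 0.55 to 24.9 ± 1.32 RPKM in DKO cells (SD, n = 3 each). Il18bp went from 1.63 ± 0.44 to 3.17 ± 0.21 RPKM and from 1.57 ± 0.36 to 3.00 ± 0.23 RPKM. Ninj1 went from 186 ± 29.1 to 329 ± 21.0 RPKM and from 179 ± 5.13 to 299 ± 11.4 RPKM. At the low dose 1 of the 47 rose and 12 fell in Apoe-/- cells, and 1 rose and 11 fell in DKO cells, where 0.748% and 0.569% of all genes rose and 2.04% and 1.69% fell. Between genotypes 0 of the 47 were called at any treatment by limma. In untreated cells 1 of the 47 had an adjusted p under 0.05 but missed the fold limit, where 0.397% of all genes passed at any fold. For 3, 5 and 1 the unadjusted p was under 0.05 in untreated, low-dose and high-dose cells (17.3%, 9.75% and 7.88% of all genes).

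**Figure D5:**
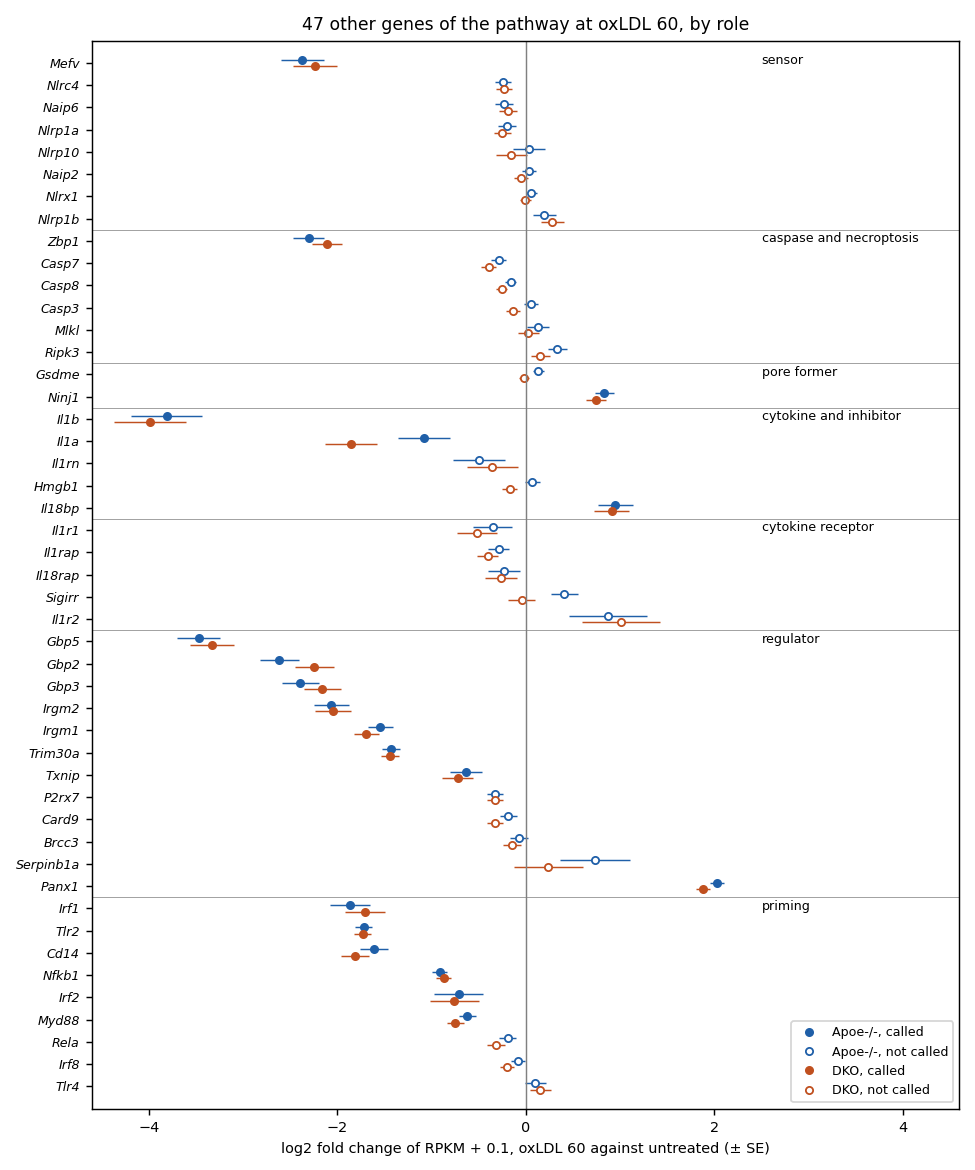
Log2 fold change at 60 µg/ml oxLDL against untreated (horizontal axis, log2 of RPKM + 0.1, ± SE from limma) of 47 further pathway genes in rows by role, Apoe-/- in blue and DKO in orange; filled points were called. Il1b lies lowest at -3.81 and -3.99 and Panx1 highest at 2.03 and 1.88.

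Facts of the libraries that touch these values were as follows. Depth was estimated from the steps of the RPKM values at 38400000 to 52400000 reads, a ratio of 1.36, and 3 reads on a transcript of 1 kb correspond to 0.0573 to 0.0781 RPKM. All genes but Casp12 lay far above that. All 8 macrophage markers were detected in every library. The 9 neutrophil and granulocyte precursor markers summed to 31.4 to 85.1 RPKM, mostly S100a9 (12.6 to 39.9 RPKM) and S100a8 (9.22 to 28.4 RPKM), with Ly6g under 0.1 RPKM in all. The 3 megakaryocyte markers summed to 126 to 195 RPKM. Nearly all of it was Pf4, with Itga2b and Gp9 at most 0.231 and 0.139 RPKM. The sums of 4 stromal, 6 T and NK cell and 4 B cell markers were at most 6.70, 0.857 and 0.0721 RPKM. Those of 4 dendritic cell, 3 mast cell and basophil and 4 erythroid markers were at most 0.306, 0.277 and 0.107 RPKM. The part of these markers in the results was not tested. Xist, the transcript made from the inactive X chromosome of females, was present in the Apoe-/- replicate 2 and DKO replicate 3 at each treatment and under 0.1 RPKM in the others.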

How the data were processed

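RNA-seq gene levels were measured in 18 BMDM libraries, 6 groups of 3 biological replicates. The authors deposited 1 table of RPKM values for 18668 genes. The submitters' processing notes name STAR and genome build mm10, and the study's methods name further counting tools; the gene annotation is not given in the sources used here. Of 274412 values above 0, 1355 lay below 1e-06, so a part of the reads had been shared between genes by estimation. RPKM are not counts, and no count test was run. Differences were tested with limma 3.58.1 (R 4.3.3, lmFit and eBayes with trend) on log2(RPKM + 0.1), in 1 fit of all 18 libraries with a mean per group, for the 12838 genes that reached 0.1 RPKM in 3 or more libraries. Benjamini-Hochberg adjustment ran over all of them within each comparison, and calls needed an adjusted p under 0.05 and a fold change of at least 1.4. The script was tested on simulated data.

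The 10 genes and the wider list were chosen with earlier results of these data known. Of the wider list, values are given for Il1b and for the most changed of those called in both genotypes, at most 5 in each direction; the other called genes are named only as members of their counts and were picked after their values were seen. Replicate numbers in the labels paired libraries within a genotype: deviations from group means correlated at 0.18 to 0.69 in 18 same-number pairs (median 0.41), against a median of -0.35 for other numbers. Between genotypes the same number had a median of -0.17 and paired nothing. Alternatives were other scaling, pseudocounts, filters, terms and left-out libraries. Genes were located with the GENCODE M21 annotation of GRCm38. Depth, which limits only low genes here, was estimated from the steps of the RPKM values and covers counting error only.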

Additional observations from a re-analysis of the deposited data

How the results depend on the processing

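Nlrp3 and Casp4 at 60 µg/ml kept their call and direction in both genotypes under each of the 16 alternatives run. With no limit on the fold change, 5 genes were lower at the high dose in Apoe-/- cells (3 with it), and 4 from the low to the high dose in each genotype (2 with it). Of all genes, in either direction, 30.2% passed without the limit in the first comparison and 13.9% with it. From the low to the high dose 13.5% in Apoe-/- and 15.6% in DKO cells passed without it, and 6.46% and 5.66% with it. At the low dose in Apoe-/- cells the count of 2 became 1 with a pseudocount of 1, with no filter and with only the compared groups in the fit, and ranged from 1 to 2 when libraries were left out one at a time. The gene lost was Casp4. In DKO cells the count of 1 became 2 at this dose after rescaling the libraries by median ratios, with a filter of 1 RPKM, with a term for Xist, with only the compared groups, and with the replicate block. Under the block, which pairs libraries of one replicate number, no other count changed. At the high dose Aim2, Naip5, Casp1 and Nek7 were not called under any alternative, but their adjusted p depended on the setting. In Apoe-/- cells the lowest were 0.00224, 0.0310, 0.0140 and 0.0438 in turn (limma). In DKO cells the lowest were 0.155, 0.1015, 0.138 and 0.0652. Gsdmd at the high dose was called in Apoe-/- cells after rescaling (-0.54) and lost in DKO cells (-0.47). The Il18 call in Apoe-/- cells was lost with a pseudocount of 1 (-0.41). The log2 fold change of Nek7 in Apoe-/- cells, -0.08, ranged from -0.16 to 0.000665 when libraries were left out one at a time, and turned positive without untreated replicate 3. Il1b, the pathway gene with the lowest change, was called under all 16 alternatives, at -2.38 and -2.45 with a pseudocount of 1 and -4.16 and -4.39 with 0.01. The cause of these shifts was not tested. Between genotypes and for the interactions the count stayed at 0 under all alternatives run. Depth limited Casp12 alone, and 3 replicates a group limited small differences.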
